A study of Mus musculus with 7 samples.

Results

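The genes of cholesterol synthesis and of the response of cells to sterols were compared between hematopoietic stem cells (HSCs) with and without deletion of Cebpa, the gene of the transcription factor C/EBPα. The set held 28 genes listed by their role: 18 enzymes that make cholesterol from acetyl-CoA, 5 genes of sterol sensing, 3 of sterol transport inside the cell and 2 of sterol export. Of these, 27 were measured among the 19938 genes of the arrays, while Acat2, which carries out the first condensation of acetyl-CoA in the cytosol, had no probe set annotated to it alone and was not analysed here. In Cebpa Δ/Δ HSCs the level of 4 members was lower at an unadjusted limma p under 0.05, namely the enzyme genes Hmgcs1, Mvd and Idi1 of the mevalonate steps and the sterol transport gene Stard4, and that of 0 members was higher, where 3.08% of all genes were lower and 4.4% higher. None of these differences passed Benjamini-Hochberg adjustment over all genes, and the smallest adjusted p among the members was 0.583. Of the 17 measured enzyme genes 14 had a log2 fold change below 0, as did 49.9% of all genes, with a median of -0.18 over the enzyme genes.

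The HSCs came from the marrow of C57BL/6 females and were sorted as cells that lacked lineage markers and CD48 and carried Sca1, c-Kit and CD150. The Cebpa Δ/Δ mice (Cebpa flox/flox;Mx1Cre, 4 arrays) and the Cebpa fl/fl mice (Cebpa flox/flox, 3 arrays) both carried 2 loxP-flanked Cebpa alleles, received the interferon inducer pIC at an age of 10 to 12 weeks and were killed at day 18. Mx1Cre makes Cre recombinase wherever interferon is sensed, so the deletion was not limited to HSCs, and since the controls carried no Cre, effects of Cre itself and of the deletion cannot be told apart. The series' design gives as many mice as arrays, although the preparation is described elsewhere in the labels as triplicates.

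Median intensities of the 7 arrays ranged between 46.2 and 50.4, and no pair of arrays was identical (mean correlation of each with the rest, 0.979 to 0.985). Cebpa itself measured 5.11, 5.24, 5.27 and 5.27 on the log2 scale in Cebpa Δ/Δ 1 to 4, against 5.54, 5.75 and 5.63 in Cebpa fl/fl 1, 2 and 3 (log2 fold change -0.41, SE 0.07, limma p 0.000923, adjusted p 0.337), and the arrays did not overlap. Of the HSC markers, 10 of 12 were measured and all 10 lay above the median gene level, among them Hlf (10.13 in Cebpa Δ/Δ and 10.64 in Cebpa fl/fl HSCs) and Kit (10.09 and 10.42 in the same order). Of their 10 log2 fold changes 9 were below 0, and 1 marker, Gfi1b (0.44), had an unadjusted limma p under 0.05. Markers of other cells differed between the genotypes. At that p, 10 of 12 measured genes of mature neutrophils had lower levels in Cebpa Δ/Δ HSCs, where 3.08% of all genes did. Higher levels were found for 9 of 9 measured erythroid (12 listed), 7 of 12 macrophage and 4 of 11 lymphoid genes (12 listed), against 4.4% of all genes. The same held for 3 of 12 endothelial and stromal, 0 of 8 megakaryocyte and platelet (12 listed), and 7 of 15 proliferation genes (16 listed). Because sorted cells were measured in bulk, fewer cells of a type and less RNA per cell cannot be told apart.

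Cholesterol is built in the cytosol and the endoplasmic reticulum. The mevalonate steps turn acetyl-CoA into farnesyl diphosphate, which also feeds the prenylation of proteins and the synthesis of ubiquinone and dolichol, and the later steps join farnesyl units to squalene, close it into a ring and trim the ring to cholesterol. SREBP transcription factors activate these genes when sterols are scarce: SCAP escorts them out of the endoplasmic reticulum, INSIG proteins hold them there when sterols are plentiful, and sterols in excess leave the cell through exporters under the control of the liver X receptors. In mice, loss of both main exporters from blood cells expands hematopoietic stem and progenitor cells.

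SREBPs act at promoters beside the factors NF-Y and Sp1. The promoters below are those of the enzyme genes Hmgcs1, Mvd and Idi1, which had an unadjusted p under 0.05, and of Insig1, a known SREBP target that did not. Each is the stretch of 250 bases before the transcription start in RefSeq (build GRCm38.p6), printed 5′ to 3′ along the gene's strand, and capitals mark matches, on either strand, to the sterol regulatory element TCACNCCAC or to the inverted CCAAT box ATTGG that NF-Y binds.
Hmgcs1, chr13:119690101-119690350, plus strand: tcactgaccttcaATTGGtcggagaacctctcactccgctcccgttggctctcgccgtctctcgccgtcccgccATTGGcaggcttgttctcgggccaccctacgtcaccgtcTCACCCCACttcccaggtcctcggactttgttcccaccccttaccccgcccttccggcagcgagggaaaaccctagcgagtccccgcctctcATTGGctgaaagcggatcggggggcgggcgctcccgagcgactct
Mvd, chr8:122443423-122443672, minus strand: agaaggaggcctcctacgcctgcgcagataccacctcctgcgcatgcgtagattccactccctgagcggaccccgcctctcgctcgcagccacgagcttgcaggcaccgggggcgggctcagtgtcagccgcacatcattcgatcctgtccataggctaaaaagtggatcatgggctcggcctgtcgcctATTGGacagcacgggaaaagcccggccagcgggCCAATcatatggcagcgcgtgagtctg
Idi1, chr13:8885356-8885605, plus strand: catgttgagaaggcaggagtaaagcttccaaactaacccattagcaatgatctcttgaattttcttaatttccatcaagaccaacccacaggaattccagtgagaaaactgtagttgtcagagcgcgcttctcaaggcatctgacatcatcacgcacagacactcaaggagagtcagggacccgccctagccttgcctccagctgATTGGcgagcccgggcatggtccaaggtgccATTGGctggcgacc
Insig1, chr5:28071162-28071411, plus strand: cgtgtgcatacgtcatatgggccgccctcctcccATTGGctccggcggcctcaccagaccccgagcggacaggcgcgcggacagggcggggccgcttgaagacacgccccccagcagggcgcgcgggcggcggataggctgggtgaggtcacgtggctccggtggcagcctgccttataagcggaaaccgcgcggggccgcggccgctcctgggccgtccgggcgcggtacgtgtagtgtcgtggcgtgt

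In the Hmgcs1 promoter 4 matches were found, 3 of the CCAAT box and 1 of the sterol regulatory element, TCACCCCAC at bases 137 to 129 before the start. The promoters of Mvd and Idi1 held 2 CCAAT boxes each, and that of Insig1 held 1. Promoters were at hand for 22 of the 28 members, and a gene with several starts was counted as having a motif if any of its windows held it. The promoters of Fdps, Fdft1, Sqle, Stard4, Npc1 and Abcg1 were not at hand and were not searched. The sterol regulatory element in this strict spelling was found in 1 of 22 members (4.55%, Hmgcs1), against 1.2% of the 15614 tested genes with a promoter. The CCAAT box was in 19 of 22 members (86.4%, against 38.8% of tested genes) and the Sp1 box GGGCGG in 21 (95.5%, against 49.3%). A match to the C/EBP motif TTNNGCAA lay before Dhcr7, Npc2 and Nsdhl (13.6% of members, against 10% of tested genes), none of which had an unadjusted p under 0.05, and in Nsdhl it overlapped a CCAAT box. The direct repeat that liver X receptors bind was also searched in a strict spelling only. It was found in 0 of 22 members and in 1 of the 15614 tested genes (0.0064%). A spelling this rare cannot show whether members lack the element. Looser spellings were not searched, and the export gene Abcg1 had no promoter at hand. All these motif matches describe letters in the windows searched and do not show that a factor binds there.

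The mevalonate steps held 3 of the 4 members with an unadjusted p under 0.05. Hmgcs1, which joins acetyl-CoA to acetoacetyl-CoA, measured 6.32, 6.56, 6.64 and 6.16 (log2 intensity) in Cebpa Δ/Δ 1 to 4, against 7.22, 6.53 and 7.06 in Cebpa fl/fl 1, 2 and 3. Cebpa fl/fl 1 and 3 stood above all Cebpa Δ/Δ arrays, while Cebpa fl/fl 2 lay among them. This was a log2 fold change of -0.51 (SE 0.19, limma p 0.0354, adjusted p 0.663), so the mean level in Cebpa Δ/Δ HSCs was 69.98% of that in Cebpa fl/fl HSCs, with a 95% confidence interval from -0.98 to -0.05 on the log2 scale. The exact two-sided permutation test over the 35 ways to choose 4 of 7 arrays gave p = 0.114.

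Mvd, the decarboxylase that makes isopentenyl diphosphate, measured 5.68, 5.76, 5.89 and 5.97 in Cebpa Δ/Δ 1 to 4, against 6.23, 6.02 and 6.24 in Cebpa fl/fl 1, 2 and 3. Every Cebpa Δ/Δ array was below every Cebpa fl/fl array, by a small gap between the nearest of them. The log2 fold change was -0.34 (SE 0.09, limma p 0.01, adjusted p 0.583), a mean level of 79.04% of Cebpa fl/fl, and the exact permutation test (two-sided) gave its minimum for 7 arrays, p = 0.0286. Mvd was the single member whose arrays did not overlap, 1 of 27 lower and 0 higher, whereas this was so for 2.46% (lower) and 3.51% (higher) of all genes.

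Idi1, the isomerase of isopentenyl diphosphate, measured 7.09, 6.88, 7.37 and 7.05 in Cebpa Δ/Δ 1 to 4, against 7.57, 7.64 and 7.31 in Cebpa fl/fl 1, 2 and 3. Cebpa Δ/Δ 3 was slightly above Cebpa fl/fl 3 and the other arrays were separated by genotype. Idi1 had a log2 fold change of -0.41 (SE 0.13, limma p 0.0204, adjusted p 0.663) and a mean level of 75.32% of Cebpa fl/fl. A second probe set of Idi1, not used for the test, read 6.74, 6.39, 6.71 and 6.74 in Cebpa Δ/Δ HSCs, against 7.02, 7.24 and 6.86 in Cebpa fl/fl HSCs, and there no overlap remained.

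The other 3 measured genes of these steps had no unadjusted p under 0.05. Pmvk, which adds the second phosphate to mevalonate and had the brightest probe set of them, read 6.45, 6.52, 6.45 and 6.46 in Cebpa Δ/Δ HSCs, against 6.45, 6.51 and 6.21 in Cebpa fl/fl HSCs. The genotypes overlapped and differed by 0.08 (95% confidence interval -0.11 to 0.27, limma p 0.36). The kinase gene Mvk, which adds the first phosphate, averaged 6.11 ± 0.11 in Cebpa Δ/Δ and 6.07 ± 0.12 in Cebpa fl/fl HSCs (SD, n = 4 and 3; log2 fold change 0.05, interval -0.16 to 0.25). Fdps, which makes farnesyl diphosphate, averaged 6.15 ± 0.20 in Cebpa Δ/Δ and 6.34 ± 0.25 in Cebpa fl/fl HSCs (-0.19, interval -0.56 to 0.18). Averaged over the 6 measured genes, each relative to its own mean over the arrays, the mevalonate steps scored -0.09, -0.08, -0.05 and -0.16 in Cebpa Δ/Δ 1 to 4, against 0.14, 0.12 and 0.12 in Cebpa fl/fl 1, 2 and 3. On this score, which is a description and was not tested, the genotypes did not overlap.

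**Figure D1:**
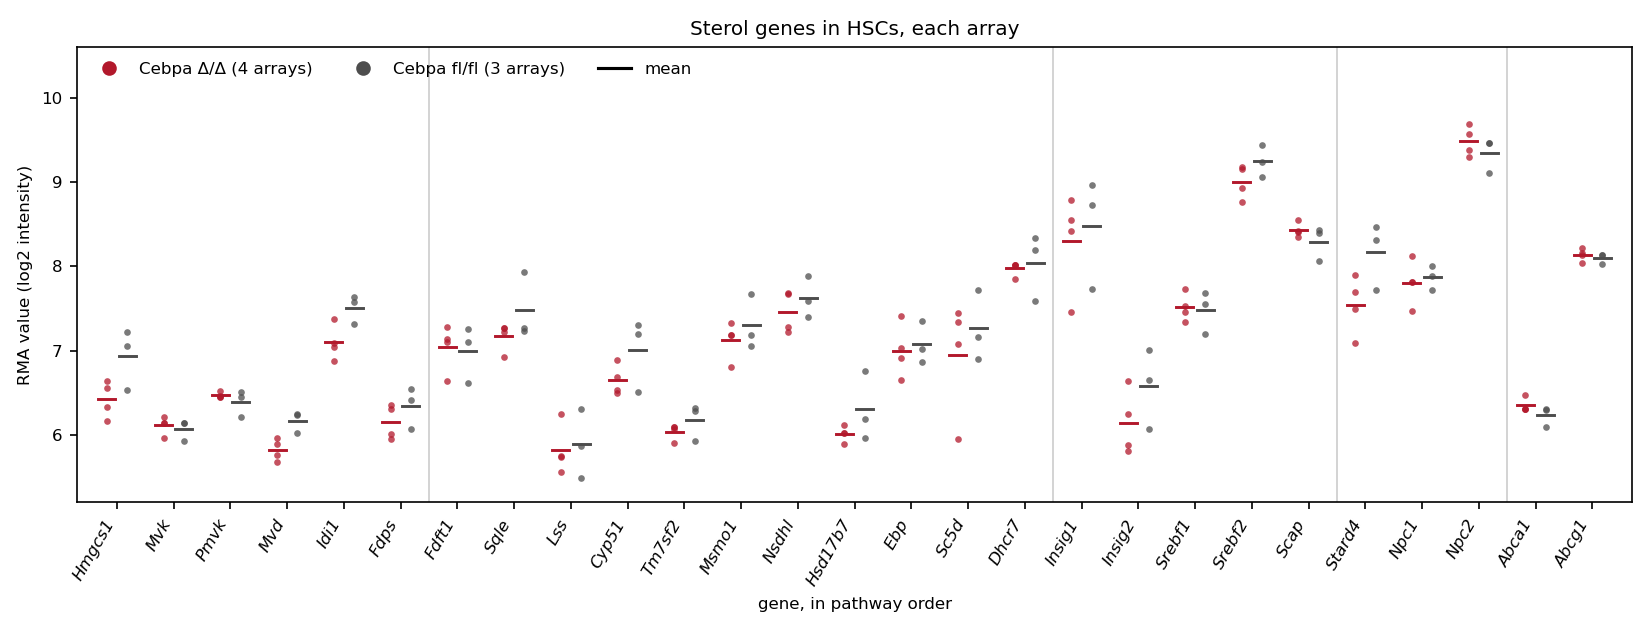
Log2 RMA intensity (vertical axis) of the 27 measured members in pathway order (horizontal axis), with 1 point per array, Cebpa Δ/Δ (4 arrays) left of Cebpa fl/fl (3 arrays) for each gene, bars at the means and grey lines between the roles. The arrays of Mvd do not overlap between the genotypes, those of the other 26 genes do, and Sc5d and Insig1 spread over 1.78 and 1.51 log2 units.

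In the steps from squalene to cholesterol 0 of 11 genes had an unadjusted p under 0.05, while 10 of 11 log2 fold changes were below 0, with a median of -0.16. Dhcr7, the reductase of the last step and the gene with the brightest probe set of these steps, read 8.02, 7.85, 8.02 and 8.02 in Cebpa Δ/Δ 1 to 4, against 7.59, 8.34 and 8.19 in Cebpa fl/fl 1, 2 and 3. The Cebpa Δ/Δ arrays sat between a low Cebpa fl/fl 1 and a high Cebpa fl/fl 2 and 3. Dhcr7 differed by -0.06 between the genotypes (SE 0.18, interval -0.49 to 0.37, limma p 0.736).

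Cyp51, which removes the first methyl group from lanosterol, had the lowest log2 fold change of these steps, at -0.35 (SE 0.21, limma p 0.134) and ranged between 6.49 and 6.88 in Cebpa Δ/Δ and between 6.51 and 7.31 in Cebpa fl/fl HSCs. Sc5d, a desaturase of the ring, had one of -0.31 with an SE of 0.40, since Cebpa Δ/Δ 3 read 5.95 and the other arrays between 6.91 and 7.72. Sqle, which oxidises squalene at a rate-limiting step, averaged 7.17 ± 0.17 in Cebpa Δ/Δ and 7.48 ± 0.40 in Cebpa fl/fl HSCs (-0.30, SE 0.19, limma p 0.165). Its highest value, 7.93, was that of Cebpa fl/fl 2.

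Hsd17b7, a ketoreductase of the ring, averaged 6.01 ± 0.09 in Cebpa Δ/Δ and 6.30 ± 0.41 in Cebpa fl/fl HSCs (-0.29, limma p 0.159). The demethylation genes Msmo1 and Nsdhl were at -0.18 (SE 0.19) and at -0.16 (SE 0.17), and the ring reductase gene Tm7sf2 had one of -0.14 (SE 0.11). Ebp, an isomerase of the ring, and Lss, which closes the ring, were at -0.08 (SE 0.20) and -0.06 (SE 0.23). The squalene synthase gene Fdft1 was the single gene of these steps above 0, at 0.05 (SE 0.21), and its second probe set, like the first, read lowest in Cebpa fl/fl 1. Over the 11 genes the score was 0.02, 0.00, -0.20 and -0.11 in Cebpa Δ/Δ 1 to 4, against -0.16, 0.28 and 0.17 in Cebpa fl/fl 1, 2 and 3, so the genotypes overlapped through Cebpa fl/fl 1.

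**Figure D2:**
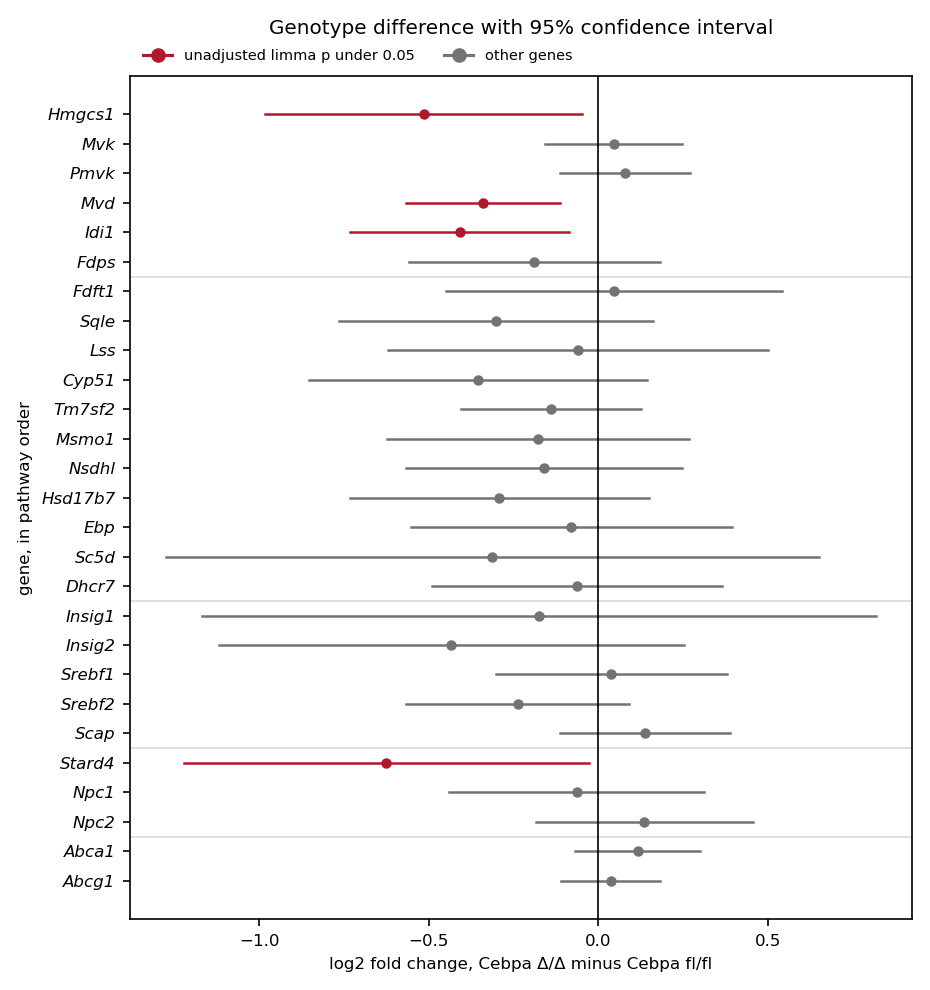
Log2 fold change of each measured member (Cebpa Δ/Δ over Cebpa fl/fl, on the horizontal axis; genes in pathway order down the page) with the limma 95% confidence interval, from 4 and 3 arrays; red marks an unadjusted p under 0.05. The intervals of Hmgcs1, Mvd, Idi1 and Stard4 lie below 0, and those of the other 23 genes include 0.

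Of the 5 genes of sterol sensing, 0 had an unadjusted p under 0.05. Srebf2, which encodes the SREBP that drives cholesterol genes and had the brightest probe set of the group, measured 8.93, 9.17, 8.76 and 9.16 in Cebpa Δ/Δ 1 to 4, against 9.06, 9.23 and 9.44 in Cebpa fl/fl 1, 2 and 3. The genotypes overlapped, with Cebpa Δ/Δ 3 lowest and Cebpa fl/fl 3 highest. The log2 fold change was -0.24 (SE 0.14, interval -0.57 to 0.09, limma p 0.129). Srebf1, whose products act more on fatty acid genes, was at 0.04 (interval -0.30 to 0.38), and the escort gene Scap at 0.14 (interval -0.11 to 0.39).

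The INSIG genes were among the most variable members within a genotype. Insig1 measured 8.41, 8.79, 7.45 and 8.54 in Cebpa Δ/Δ 1 to 4, against 7.73, 8.73 and 8.97 in Cebpa fl/fl 1, 2 and 3. Cebpa Δ/Δ 3 and Cebpa fl/fl 1 were both low. The log2 fold change was -0.17 with an SE of 0.41, and the interval from -1.17 to 0.82 covers changes past 1.5-fold in either direction. Insig2 averaged 6.14 ± 0.38 in Cebpa Δ/Δ and 6.58 ± 0.47 in Cebpa fl/fl HSCs (-0.43, SE 0.28, limma p 0.176), and in contrast to Insig1 it was highest in Cebpa fl/fl 1, at 7.01.

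Stard4, a carrier of cholesterol between membranes and itself an SREBP target, had the lowest log2 fold change of all members. It measured 7.49, 7.70, 7.90 and 7.09 in Cebpa Δ/Δ 1 to 4, against 8.46, 7.72 and 8.32 in Cebpa fl/fl 1, 2 and 3. As with Hmgcs1, Cebpa fl/fl 2 was the low control array and lay among the Cebpa Δ/Δ arrays. The log2 fold change was -0.62 (SE 0.25, interval -1.22 to -0.03, limma p 0.0428, adjusted p 0.663), a mean level of 64.86% of Cebpa fl/fl, and the exact two-sided permutation test gave p = 0.114.

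The lysosomal sterol carriers Npc1 and Npc2, which pass cholesterol from taken-up lipoprotein to the rest of the cell, differed by -0.06 (SE 0.16) and by 0.14 (SE 0.13) on the log2 scale. Npc2, with the brightest probe set of the transport genes, read 9.57, 9.68, 9.37 and 9.30 in Cebpa Δ/Δ HSCs, against 9.11, 9.47 and 9.47 in Cebpa fl/fl HSCs, and the genotypes overlapped. The export genes are targets of the liver X receptors. Abcg1, the brighter of them, read 8.21, 8.14, 8.04 and 8.16 in Cebpa Δ/Δ HSCs, against 8.02, 8.14 and 8.14 in Cebpa fl/fl HSCs. All its arrays lay within 0.19 log2 units, with identical values on 3 of them, and the log2 fold change was 0.04 (interval -0.11 to 0.18). Abca1, the other exporter, averaged 6.35 ± 0.08 in Cebpa Δ/Δ and 6.23 ± 0.12 in Cebpa fl/fl HSCs (0.12, interval -0.07 to 0.30, limma p 0.177).

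As a group, 4 of 27 members (14.8%) were lower at an unadjusted p under 0.05, where 3.08% of all 19938 genes were lower, and 0 were higher, where 4.4% of all genes were. At the thresholds of the study, that p together with a change over 1.5-fold, Stard4 was the single member lower and 0 were higher, against 0.617% and 1.57% of all genes. At an adjusted p under 0.05 the count was 0 of 27 members and 0% of all genes in either direction. The log2 fold change was below 0 in 19 of 27 members (70.4%), in 14 of 17 enzyme genes (82.4%) and in 5 of the 10 other members, and in 49.9% of all genes. The median was -0.16 over the members, -0.18 over the enzyme genes and -0.01 over the other members, where it was 0.00 over all genes. Set against the middle 50% of all genes, which spans -0.09 to 0.09, 15 members lay below it, 9 within and 3 above. This band includes genes with identical values on several arrays. Members also varied more within a genotype (median SD 0.25, against 0.16 over all genes), which alone can place more of them outside the band.

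The members called depended on single arrays. Mvd kept an unadjusted p under 0.05 when any of the 7 arrays was left out, with log2 fold changes from -0.41 to -0.29. Idi1 lost it without Cebpa Δ/Δ 4, Cebpa fl/fl 1 or Cebpa fl/fl 2, at values from -0.51 to -0.34 over the arrays left out. Hmgcs1 (-0.72 to -0.37) held it only without Cebpa Δ/Δ 2, Cebpa Δ/Δ 3 or Cebpa fl/fl 2, and Stard4 (-0.85 to -0.47) only without Cebpa Δ/Δ 3 or Cebpa fl/fl 2. Without Cebpa fl/fl 1 the called members were Mvd, Cyp51, Tm7sf2, Hsd17b7 and Dhcr7, all lower, where 2.88% of all genes were lower. Without Cebpa fl/fl 3 they were Mvd, Idi1 and Insig2, where 2.55% of all genes were lower. Leaving out an array also lowers the power of the fit.

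The size of the shift depended on the controls more than its direction did. The median over the enzyme genes was -0.29 without Cebpa fl/fl 1 and -0.07 without Cebpa fl/fl 2, and that over all members was -0.26 and -0.06 without the same arrays, -0.08 without Cebpa fl/fl 3 and -0.10 without Cebpa Δ/Δ 3. It stayed below 0 whichever array was left out, with 16 to 22 of 27 members below 0. With both Cebpa fl/fl 1 and Cebpa Δ/Δ 3 left out, the least correlated arrays, the member median was -0.23. The called members were then Idi1, Cyp51, Tm7sf2 and Dhcr7, all lower, where 2.57% of all genes were lower.

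Sterol genes differed between arrays of the same genotype. Cebpa fl/fl 1 was the lowest array of its genotype for 19 of 27 members, with a median deviation of -0.21 from the genotype mean, although it was the highest for Hmgcs1, Stard4, Msmo1 and Insig2. Cebpa fl/fl 2 was the highest for 15 members. Among the Cebpa Δ/Δ arrays, Cebpa Δ/Δ 2 lay above the genotype mean for 22 members and Cebpa Δ/Δ 3 below it for 18. The median standard deviation within a genotype was 0.25 over the members and 0.16 over all genes (log2), and 20 of 27 members exceeded that of the median gene. Insig1, Sc5d and Insig2 varied most, above 98.33%, 98.17% and 94.04% of all genes.

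**Figure D3:**
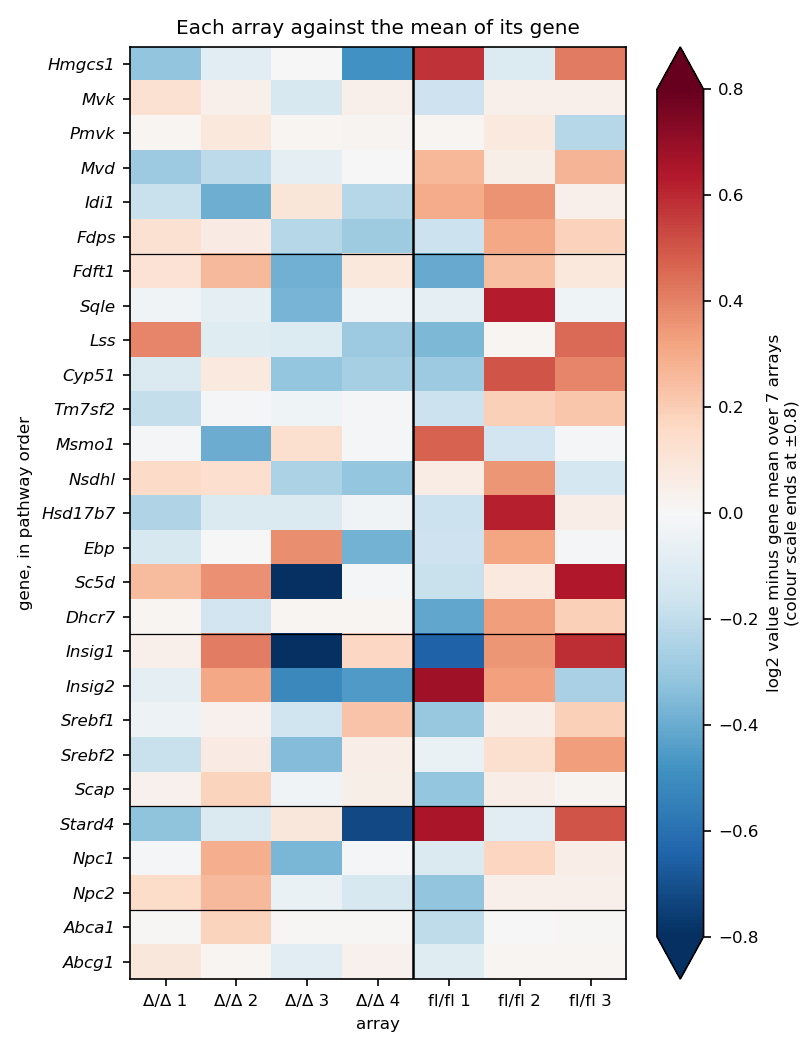
Each measured member (rows, in pathway order) in each array (columns, Cebpa Δ/Δ 1 to 4 left of Cebpa fl/fl 1 to 3), as the log2 value minus the gene's mean over the 7 arrays; the colour scale runs from blue (lower) to red (higher). Cebpa fl/fl 1 is blue for most genes and red for Hmgcs1, Mvd, Idi1, Msmo1, Insig2 and Stard4, among others, while Cebpa fl/fl 2 and 3 are red for most.

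Many genes had identical deposited values on several arrays. In 7864 of all genes (39.4%) at least 3 of the 7 arrays held the same value, in 99.94% of them at the gene's median, and this was so for 6 of 27 members (22.2%): Mvk, Pmvk, Msmo1, Dhcr7, Abca1 and Abcg1. An unadjusted p under 0.05 was reached by 1.69% of such genes and by 11.3% of the others. Among genes with fewer than 3 identical arrays, 4.58% were lower and 6.68% higher at that p, where 4 of 21 members (19%) were lower. Among those of them above the median level, 5.11% were lower, where 4 of 20 members (20%) were. Identical values can narrow the measured spread of a gene. The short intervals of Mvk, Pmvk, Abca1 and Abcg1 may therefore understate the uncertainty. How the identical values arose is not given in the sources used here.

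Markers of other cells and of proliferation moved with the genotype, and their part in the sterol results was not tested. The proliferation score was 0.52, 0.16, 0.34 and -0.12 in Cebpa Δ/Δ 1 to 4, against -0.47, -0.01 and -0.41 in Cebpa fl/fl 1, 2 and 3, so Cebpa fl/fl 1 was the lowest and Cebpa Δ/Δ 4 overlapped Cebpa fl/fl 2. The HSC score was -0.22, 0.19, -0.53 and 0.13 in Cebpa Δ/Δ 1 to 4, against 0.06, 0.17 and 0.20 in Cebpa fl/fl 1, 2 and 3. Cebpa Δ/Δ 3, the lowest array on the HSC score, was the lowest Cebpa Δ/Δ array for 12 members, among them Insig1, Sc5d, Sqle and Srebf2, and the highest for 5, namely Hmgcs1, Idi1, Stard4, Msmo1 and Ebp.

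The mature neutrophil score lay between -1.76 and -0.77 in Cebpa Δ/Δ HSCs and between 0.79 and 2.66 in Cebpa fl/fl HSCs. The erythroid score lay between 0.43 and 1.41 in Cebpa Δ/Δ HSCs and between -1.54 and -0.67 in Cebpa fl/fl HSCs, and the macrophage score between -0.01 and 0.97 and between -0.67 and -0.57 in the same order of genotypes. These scores differed between the genotypes by far more than those of the sterol genes, in arrays that did not overlap.

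**Figure D4:**
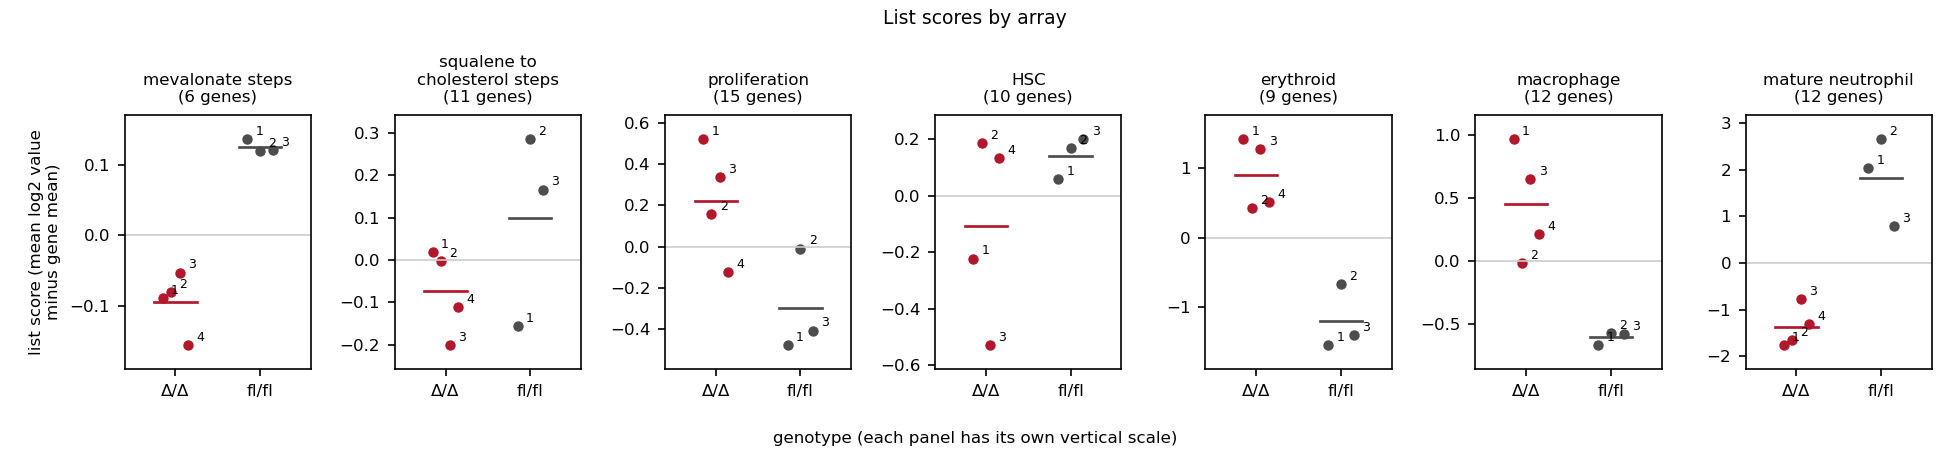
List scores (mean over a list's measured genes of the log2 value minus the gene's mean over the 7 arrays, vertical axis with its own scale in each panel) in Cebpa Δ/Δ (left, 4 arrays) and Cebpa fl/fl HSCs (right, 3 arrays); points are arrays with their replicate numbers and bars are means. The score of the mevalonate steps lies between -0.16 and -0.05 in Cebpa Δ/Δ and between 0.12 and 0.14 in Cebpa fl/fl HSCs, and that of the steps from squalene to cholesterol overlaps.

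Of 26 further genes listed for sterol uptake, SREBP processing, esterification, oxysterol synthesis and related roles, 16 were measured. Among these were also the enzyme genes Acat1, Ggps1 and Lbr, the liver X receptor gene Nr1h3 and sterol transfer genes such as Osbp. The measured genes included no enzyme of sterol esterification or oxysterol synthesis. At an unadjusted p under 0.05, 2 of them (12.5%) were higher, where 4.4% of all genes were, and 0 were lower, where 3.08% were, and the median was 0.01. The lipoprotein receptor gene Vldlr measured 7.76, 8.36, 8.49 and 7.99 in Cebpa Δ/Δ 1 to 4, against 7.18, 7.61 and 7.01 in Cebpa fl/fl 1, 2 and 3. All Cebpa Δ/Δ arrays were higher (log2 fold change 0.88, SE 0.22, limma p 0.0063, adjusted p 0.507), and Vldlr also passed the study's thresholds, though without both Cebpa fl/fl 1 and Cebpa Δ/Δ 3 it was at 0.72 and lost the unadjusted p under 0.05. Rnf139, a ubiquitin ligase of the endoplasmic reticulum that responds to sterols, measured 8.26, 8.07, 8.11 and 7.96 in Cebpa Δ/Δ HSCs, against 7.90, 7.77 and 7.82 in Cebpa fl/fl HSCs. Its arrays did not overlap either (0.27, SE 0.08, limma p 0.0121, adjusted p 0.62).

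Fatty acid synthesis and desaturation, the other branch under SREBP control, had 16 measured genes with a median of -0.04, of which 1 (6.25%, against 4.4% of all genes) was higher and 2 (12.5%, against 3.08%) were lower at an unadjusted p under 0.05. The genes lower at that p were the desaturase genes Fads1 and Scd2. Fads1 averaged 8.25 ± 0.31 in Cebpa Δ/Δ and 8.77 ± 0.18 in Cebpa fl/fl HSCs (log2 fold change -0.51, SE 0.18, limma p 0.029, adjusted p 0.663), and Scd2 averaged 9.70 ± 0.10 and 9.93 ± 0.15 in the same order (-0.23, SE 0.09, limma p 0.0405). Me1, which makes NADPH for lipid synthesis, was higher at 5.15 ± 0.14 in Cebpa Δ/Δ and 4.84 ± 0.15 in Cebpa fl/fl HSCs (0.31, SE 0.11, limma p 0.0238), with both means below the median gene level of 5.86. With the mean of all its probe sets Me1 was at 0.19. With each array left out in turn, Scd2 kept an unadjusted p under 0.05 only without Cebpa Δ/Δ 2 or Cebpa fl/fl 1 (-0.32 to -0.18 over the 7 arrays left out). Fads1 (-0.63 to -0.39) lost it without Cebpa Δ/Δ 4, Cebpa fl/fl 1 or Cebpa fl/fl 2, and Me1 (0.22 to 0.37) without Cebpa Δ/Δ 1, Cebpa Δ/Δ 3 or Cebpa fl/fl 2. Of 12 genes listed for the branches from farnesyl diphosphate to prenylation, ubiquinone and dolichol, 11 were measured. An unadjusted p under 0.05 was reached by 0 of them (median -0.06, range -0.29 to 0.23).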

How the data were processed

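HSCs of 7 mice were profiled on Affymetrix Mouse Gene ST arrays after amplification of total RNA with a NuGEN kit. The deposited intensity values are RMA (Robust Multichip Average) values, made with RMA and affy per the submitters' processing notes and with Partek Genomics Suite per the methods. RMA gives all arrays one distribution, which hides any change in the RNA content of cells. Values were linear, from 1.51 to 9840, and log2 was taken without a pseudocount, where the planned test had assumed log2 values. Of 35556 probe sets 21789 had 1 gene symbol and 1621 several, which were not used, and 12146 were unnamed here. Symbols were updated or kept through Entrez numbers for 21698 probe sets (RefSeq, GRCm38.p6). The brightest probe set stood for each of 999 genes with more than 1, which left 19938 genes. No column of a sample stayed unused (0).

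The limma functions lmFit and eBayes (limma 3.58.1 under R 4.3.3) compared Cebpa Δ/Δ with Cebpa fl/fl in a model of genotype alone, and p-values were adjusted over all genes after Benjamini and Hochberg. Calls at the study's thresholds (unadjusted p under 0.05, over 1.5-fold) were read from limma's p, as the study names no test for the arrays. The fit was also run on simulated data with independent normal noise. Those data held no identical values across arrays, so that run does not show how the fit behaves here. The number of arrays limits the precision, and the probe sets of 26 of 27 members were brighter than the median gene. The members, lists and tests were chosen with earlier results of these data known. All members are named. Values of every array are given for members with an unadjusted p under 0.05 or without overlap and for the brightest other member of a role, and from further lists the members with such a p. Insig1 was added for its spread after its values were seen. Motifs were searched on both strands of the 250 bases before each RefSeq start. Alternatives covered scaling, low values, variance estimation, array weights, probe sets, replicate number and arrays left out.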

Additional observations from a re-analysis of the deposited data

Results flagged for a closer look

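Of 28 genes examined in the 4 Cebpa Δ/Δ arrays, 5 had an array far from the others of the group. Pmvk was highest in Cebpa Δ/Δ 2 (6.52 on the log2 scale), Sqle lowest in Cebpa Δ/Δ 3 (6.93), Tm7sf2 lowest in Cebpa Δ/Δ 1 (5.91), Dhcr7 lowest in Cebpa Δ/Δ 2 (7.85) and Abca1 highest in Cebpa Δ/Δ 2 (6.47). Chance alone flags about 1 in 20 such groups. In all 5 genes at least 2 of the other Cebpa Δ/Δ arrays held identical values, 2 for Pmvk, Sqle and Tm7sf2 and 3 for Dhcr7 and Abca1. Identical values among the others raise this measure by construction.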

How the results depend on the processing

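The medians over the members and over the enzyme genes stayed below 0 under every alternative tried, Cebpa was lower with an unadjusted p under 0.05 in all that held it, and 0 members were higher. Hmgcs1, Idi1 and Stard4 lost an unadjusted p under 0.05 in 8, 4 and 9 of 17 alternatives, and Mvd lost it in 1, without both Cebpa fl/fl 1 and Cebpa Δ/Δ 3. With low values raised to the percentile 25, 2 of 27 members were lower, against 2.25% of all genes, and 0 were past the study's thresholds. This floor, 4.43 on the log2 scale, lay below the lowest member value (5.49, Lss). The log2 fold changes of Hmgcs1 and Stard4 were thus unaltered (limma p 0.0531 and 0.064), and for members only the moderated variance differed. Without moderation of the variance the member counts were likewise 2 and 0, with 370 of all genes (1.86%) lower. With only genes above the median level, which tests fewer genes, 5 passed the adjusted threshold, and at an unadjusted p under 0.05 there were 566 higher and 362 lower. Over every probe set 1118 were lower. With Cebpa fl/fl 1 and Cebpa Δ/Δ 3 both left out, 0 members passed the study's thresholds, Srebf1 was at -0.0448 and Fdft1 at -0.0086. With array weights Srebf1 was at -0.0002. Apart from the floor, the cause of these changes was not tested.

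Replicate numbers are not stated to pair the samples. Deviations of samples with the same number correlated at -0.02, 0.10 and -0.18 for numbers 1 to 3, and 1 of 3 correlated best with its own number. So few pairs cannot show whether the samples were paired. Cebpa Δ/Δ 4 has no partner of its number, so a fit with the replicate number as a block also leaves this array out of the genotype difference, and its log2 fold changes equal those without Cebpa Δ/Δ 4. In that block fit 1 of 27 members (Mvd) was lower, against 2.9% of all genes, and 0 passed the study's thresholds. The log2 fold changes of Srebf1, Lss and Ebp in it were -0.033, 0.0273 and 0.0358.

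With each array left out in turn, 0 to 3 genes passed the adjusted threshold. In these fits 377 to 749 genes (1.89% to 3.76%) and 1 to 5 of 27 members were lower. At the study's thresholds 0 to 2 members passed, and the median of the enzyme genes ranged from -0.288 to -0.0732. Signs turned for Mvk (-0.024 to 0.0949), Pmvk (-0.0118 to 0.138), Fdft1 (-0.14 to 0.18), Lss (-0.26 to 0.15), Msmo1 (-0.303 to 0.0075), Ebp (-0.215 to 0.0551), Sc5d (-0.491 to 0.0227), Dhcr7 (-0.288 to 0.0868), Insig1 (-0.55 to 0.11), Srebf1 (-0.10 to 0.14), Npc1 (-0.17 to 0.0486) and Abcg1 (-0.0015 to 0.0688), none with an unadjusted p under 0.05 in the fit to all arrays. In all, 469 of the values of single genes kept their direction and side of that p, 40 lost it, 8 gained it and 25 turned. The number of arrays limits what could be detected.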
